A study of Mus musculus with 11 samples.

Results

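The NRF2 antioxidant response was described here through 10 genes, *Nfe2l2*, *Keap1*, *Nqo1*, *Gclc*, *Gclm*, *Txnrd1*, *Srxn1*, *Hmox1*, *Sqstm1* and *Ephx1*, which were chosen by name. All 10 were among the 13669 genes of the deposited count table, and all 10 passed the filter on low counts that left 13334 genes to be tested. The livers came from WT male C57BL/6J mice on regular chow that received, through the tail vein, a recombinant adeno-associated virus (rAAV) of serotype 8. In 6 mice the virus expressed a TuD, a decoy transcript that carries sites for the miRNAs *miR-379* and *miR-541* (AAV-TuD), and in 5 mice a negative control sequence (AAV-NC), both from the synthetic liver promoter LP1. Each library is 1 liver, and the mice were killed after a short fast, several weeks to a few months after the virus, with no time given for a single animal in the sources used here. There is no group without a virus, so that every value below compares the decoy with the control sequence in virus-treated liver.

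NRF2, the protein of *Nfe2l2*, is a transcription factor whose amount is set mainly by protein turnover. KEAP1 holds it in the cytoplasm and hands it to a CUL3 ubiquitin ligase, until oxidants or electrophiles modify KEAP1 and newly made NRF2 escapes, enters the nucleus, pairs with a small MAF protein and binds antioxidant response elements. In the liver its targets make glutathione, reduce thioredoxin and quinones and break down heme, and p62, the protein of *Sqstm1*, can draw KEAP1 into autophagy. The libraries count mRNA and hold no measure of NRF2 protein, of its place in the cell or of its binding to DNA.

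The antioxidant response element was sought in the promoters, since it is the sequence through which NRF2 acts on its targets, *Nfe2l2* itself among them. RefSeq promoters on GRCm38.p6, from 250 bases before to 50 bases after the annotated start, were found for 8 of the 10 genes, with *Gclc* and *Hmox1* as the other two. The core TGACNNNGC was searched on both strands. It was in 4 of the 10 promoters of these 8 genes, those of 4 genes, and in 12.4% of all 32851 promoters of the table. The promoters of the 2 genes that rose are printed whole, 5′ to 3′ in the direction of the gene, with each match in capitals (GCNNNGTCA where it lies on the other strand).
Nfe2l2, chr2:75704614-75704913, minus strand: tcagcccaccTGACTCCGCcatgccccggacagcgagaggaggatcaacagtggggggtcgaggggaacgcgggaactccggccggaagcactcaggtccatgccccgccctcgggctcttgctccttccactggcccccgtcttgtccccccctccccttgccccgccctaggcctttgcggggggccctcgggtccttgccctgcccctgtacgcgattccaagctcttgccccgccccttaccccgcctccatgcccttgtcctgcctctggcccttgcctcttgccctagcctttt
Srxn1, chr2:152105274-152105573, plus strand: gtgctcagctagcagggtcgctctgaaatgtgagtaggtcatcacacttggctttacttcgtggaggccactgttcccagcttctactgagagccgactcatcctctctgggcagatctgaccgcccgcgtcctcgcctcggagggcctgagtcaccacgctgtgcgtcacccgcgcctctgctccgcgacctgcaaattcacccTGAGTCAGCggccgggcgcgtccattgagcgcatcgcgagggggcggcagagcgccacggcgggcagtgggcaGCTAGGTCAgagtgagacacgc
The core of *Nfe2l2* began 240 bases before the start. That of *Srxn1* lay on the other strand, 29 bases after the start, and the other run in capitals, 45 bases before the start, is TGAGTCAGC, a form of the element that small MAF proteins also bind and that the core as written misses. Its first bases, TGAGTCA, are also the site of AP-1 factors. TGAGTCAGC was searched after this promoter had been read, and 0.414% of all promoters held it. *Gclm* and 1 of the 3 promoters of *Txnrd1* also held the core, both on the other strand, and are shown by the bases around it.
Gclm, within chr3:122245307-122245606, plus strand: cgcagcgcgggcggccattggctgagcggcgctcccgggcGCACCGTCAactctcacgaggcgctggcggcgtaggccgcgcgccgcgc
Txnrd1, within chr10:82858956-82859255, plus strand: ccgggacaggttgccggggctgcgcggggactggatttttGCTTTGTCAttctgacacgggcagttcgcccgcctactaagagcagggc
Only the *Txnrd1* match was followed by A on its own strand, as were those of 3.04% of all promoters. The windows of *Keap1*, *Nqo1*, *Sqstm1* and *Ephx1* held no match, which says only that these letters are not in these 300 bases. A match is a description of the sequence and was not tested as a binding site.

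*Nfe2l2* and *Srxn1* rose with AAV-TuD and the other 8 genes did not pass the test, as the plot of all livers shows. Of the 10 genes, 2 were higher and 0 were lower in edgeR (adjusted p below 0.05), against 7.24% of all tested genes higher, 4.33% lower and 11.6% in either direction. The median log2 fold change was 0.020 over the 10 genes and -0.0024 over all genes tested. By the range of the levels, 1 of the 10 genes, *Nfe2l2*, had groups that did not overlap, against 7.39% of all tested genes. DESeq2 called 4 of the 10, where it called 13.6% of all genes, and the additional ones, *Gclc* and *Gclm*, were lower with AAV-TuD.

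**Figure D1:**
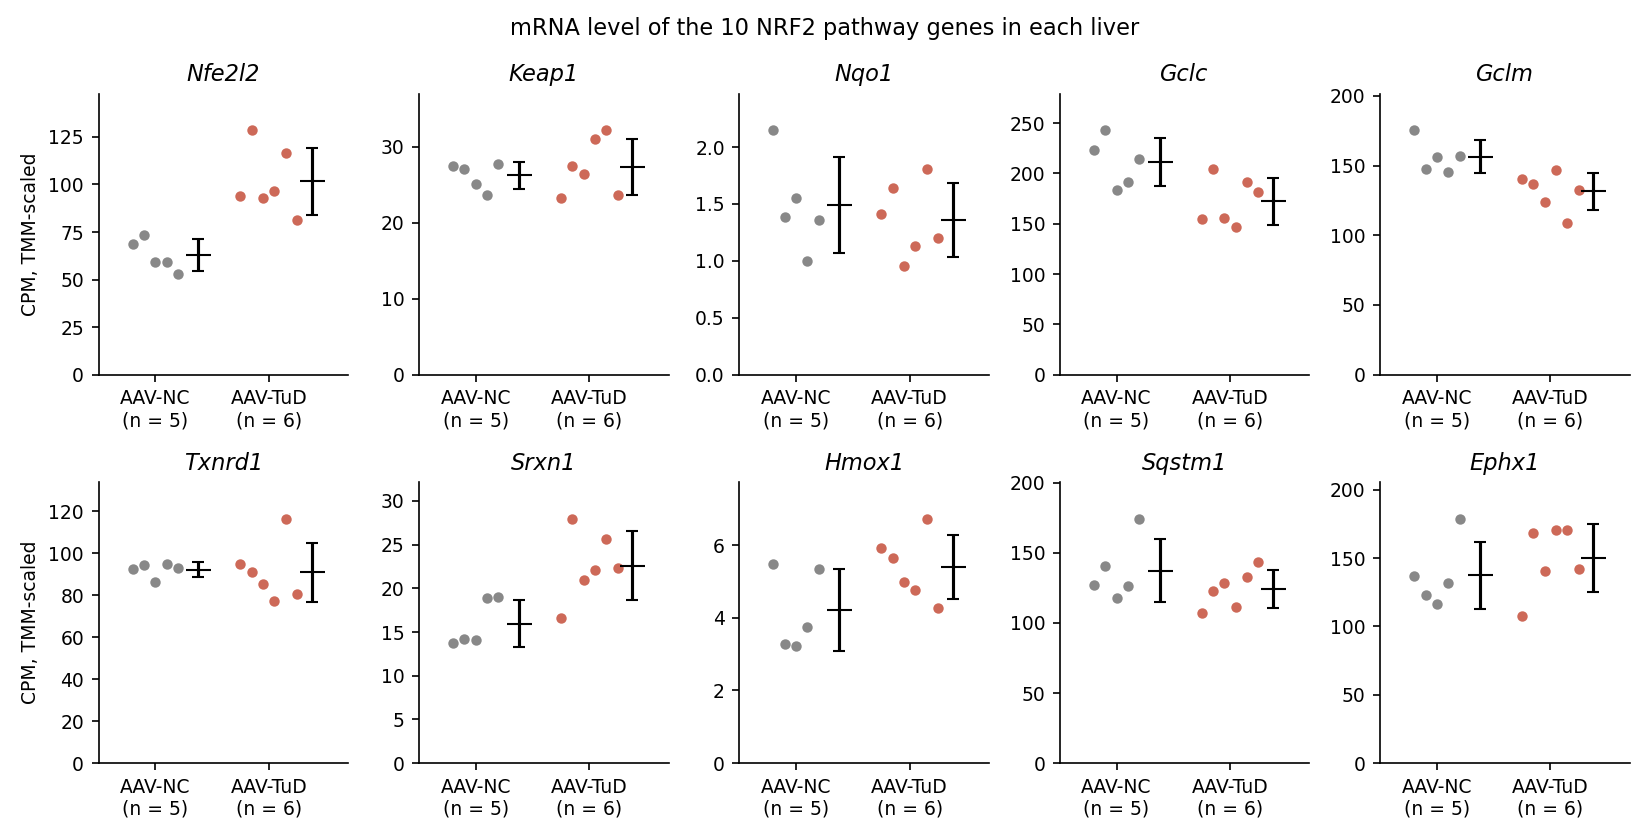
Level of each of the 10 genes in each liver, in CPM (reads of the gene per 1000000 reads of the library, scaled with TMM factors), on axes that start at 0; points are livers (AAV-NC, n = 5, grey; AAV-TuD, n = 6, red) in the order of their replicate numbers, and the bar beside them gives mean ± SD. All 6 AAV-TuD livers lie above the AAV-NC livers for *Nfe2l2* and 5 of 6 do for *Srxn1*, while the groups overlap in the other 8 panels.

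Library totals lay between 8148531 and 12043959 reads on genes, so 1 CPM (1 read per 1000000) stands for about 10 reads. *Mup* transcripts took between 8.09% and 38.6% of the reads of a library, and counts were therefore scaled with TMM factors (0.667 to 1.24). Scaled by library size alone, all tested genes together had a median log2 fold change of 0.23, so that changes under that scaling are read relative to it. Of the genes called, 62.6% were higher in AAV-TuD livers with TMM factors and 95.1% with library size alone. The reads come from the 3′ end of each transcript, so a level in CPM was compared between genes without division by length. The tissue carried its defining markers, with *Alb* between 17185 and 33283 CPM.

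*Nfe2l2* lies on chr2:75675513-75704641 (GRCm38, minus strand, 5 exons) and showed the clearest change of the 10. Its level was 68.8, 73.6, 59.4, 59.5 and 53.1 CPM in the AAV-NC livers 1, 2, 6, 7 and 8, and from 81.2 through a median of 95.2 to 129 CPM in the 6 AAV-TuD livers. Every AAV-TuD liver was above every AAV-NC liver, and AAV-TuD livers 4 and 10 were the highest. The means were 62.9 ± 8.20 CPM (SD, n = 5) and 102 ± 17.4 CPM (SD, n = 6), a 1.62-fold difference (log2 fold change 0.69, SE 0.12, 95% interval 0.45 to 0.94, adjusted p = 0.00211). A two-sided exact permutation test over every split of the livers gave p = 0.00216, the smallest it can give. The call was kept under all 20 alternatives, the livers left out in turn included, with log2 fold changes from 0.61 to 0.94. In bulk liver, a change in the share of a cell type and a change of mRNA per cell cannot be told apart.

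*Keap1*, the gene of the repressor, lies on chr9:21229730-21239361 (minus strand) and had levels that lay over each other in the groups. The AAV-NC livers held 27.5, 27.1, 25.1, 23.7 and 27.7 CPM, and the AAV-TuD livers between 23.2 and 32.2 CPM with a median of 26.9. The log2 fold change was 0.060 with a 95% interval from -0.15 to 0.27 (adjusted p = 0.752). The ratio of *Nfe2l2* to *Keap1* within each liver, which a scaling of the library hardly moves, separated the groups. It was 1.25 ± 0.19 on the log2 scale (SD, n = 5) in AAV-NC and 1.88 ± 0.20 (SD, n = 6) in AAV-TuD livers, with 6 of 6 AAV-TuD livers above the AAV-NC range of 0.93 to 1.44. The difference of 0.63 had an exact permutation p = 0.00216 (0.00649 adjusted over the 3 ratios examined), and it stayed between 0.55 and 0.68 with each liver left out.

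*Srxn1* encodes sulfiredoxin, which repairs peroxiredoxins that oxidants have inactivated. It lies on chr2:152105516-152111376 (plus strand, 2 exons). The AAV-NC livers held 13.7, 14.2, 14.1, 18.9 and 19.0 CPM, and the AAV-TuD livers 16.6 at the lowest, 22.2 at the median and 28.0 CPM at the highest. AAV-NC livers 7 and 8 stood above the other controls, and AAV-TuD liver 3 was the one treated liver inside the AAV-NC range. The means were 16.0 ± 2.71 (SD, n = 5) and 22.6 ± 3.92 CPM (SD, n = 6), a log2 fold change of 0.50 (SE 0.14, 95% interval 0.21 to 0.79, adjusted p = 0.0262). The gene had 113 to 307 reads per liver, and its call was lost, at adjusted p values from 0.0577 to 0.0676, when AAV-NC liver 1, 2 or 6 or AAV-TuD liver 4 or 10 was left out, with log2 fold changes from 0.43 to 0.46 in these 5 fits.

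*Txnrd1*, the cytosolic thioredoxin reductase, lies on chr10:82833951-82897712 (plus strand). It held 92.3, 94.3, 86.4, 95 and 92.9 CPM in the AAV-NC livers, the narrowest spread of the 10 genes relative to its mean there, and from 77.4 to 116 CPM with a median of 88.1 in the AAV-TuD livers. Liver 10 of AAV-TuD was the highest of all 11 and the other 5 were at or below 94.8 CPM. The log2 fold change was -0.020 with a 95% interval from -0.22 to 0.18 (adjusted p = 0.923), and its sign turned without AAV-TuD liver 9 or 11. The log2 ratio of *Srxn1* to *Txnrd1* was -2.53 ± 0.22 (SD, n = 5) in AAV-NC and -2.0 ± 0.30 (SD, n = 6) in AAV-TuD livers, and 5 of 6 AAV-TuD livers were above all controls (difference 0.52, exact permutation p = 0.0152, adjusted p = 0.0227). Without AAV-NC liver 1 or 2 the adjusted p was 0.05.

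*Gclc* and *Gclm* encode the catalytic and the modifier subunit of glutamate-cysteine ligase, the rate-limiting enzyme of glutathione synthesis. *Gclc* (chr9:77754535-77794485, plus strand) held 223, 243, 184, 191 and 214 CPM in the AAV-NC livers and from 146 through a median of 169 to 204 CPM in the AAV-TuD livers. Of the 6 AAV-TuD livers, 4 were below every control liver. The log2 fold change was -0.29 (SE 0.10, 95% interval -0.50 to -0.081) and the adjusted p was 0.0686 in edgeR and 0.0465 in DESeq2.

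*Gclm* (chr3:122245557-122270732, plus strand) held 175, 148, 156, 145 and 157 CPM in the AAV-NC livers and from 109 through a median of 135 to 147 CPM in the AAV-TuD livers. Here 5 of the 6 AAV-TuD livers were below every control liver, and AAV-TuD liver 9, at 147 CPM, lay at the low end of the controls. The log2 fold change was -0.25 (SE 0.081, 95% interval -0.42 to -0.076), with adjusted p values of 0.0600 in edgeR and 0.0339 in DESeq2. Both subunits kept this sign under all 20 alternatives. With library size alone, their log2 fold changes were -0.052 for *Gclc* and -0.025 for *Gclm*, which are -0.28 and -0.26 relative to the median of all genes under that scaling. High-level genes as a whole were slightly lower with AAV-TuD. Over the 418 genes with a mean level between 7 and 8 on the log2 CPM scale, where *Gclc*, *Gclm*, *Sqstm1* and *Ephx1* lie, the median log2 fold change was -0.15. The log2 ratio of *Gclm* to *Gclc* was -0.43 ± 0.18 (SD, n = 5) in AAV-NC and -0.39 ± 0.30 (SD, n = 6) in AAV-TuD livers, a difference of 0.043 (exact permutation p = 0.781).

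**Figure D2:**
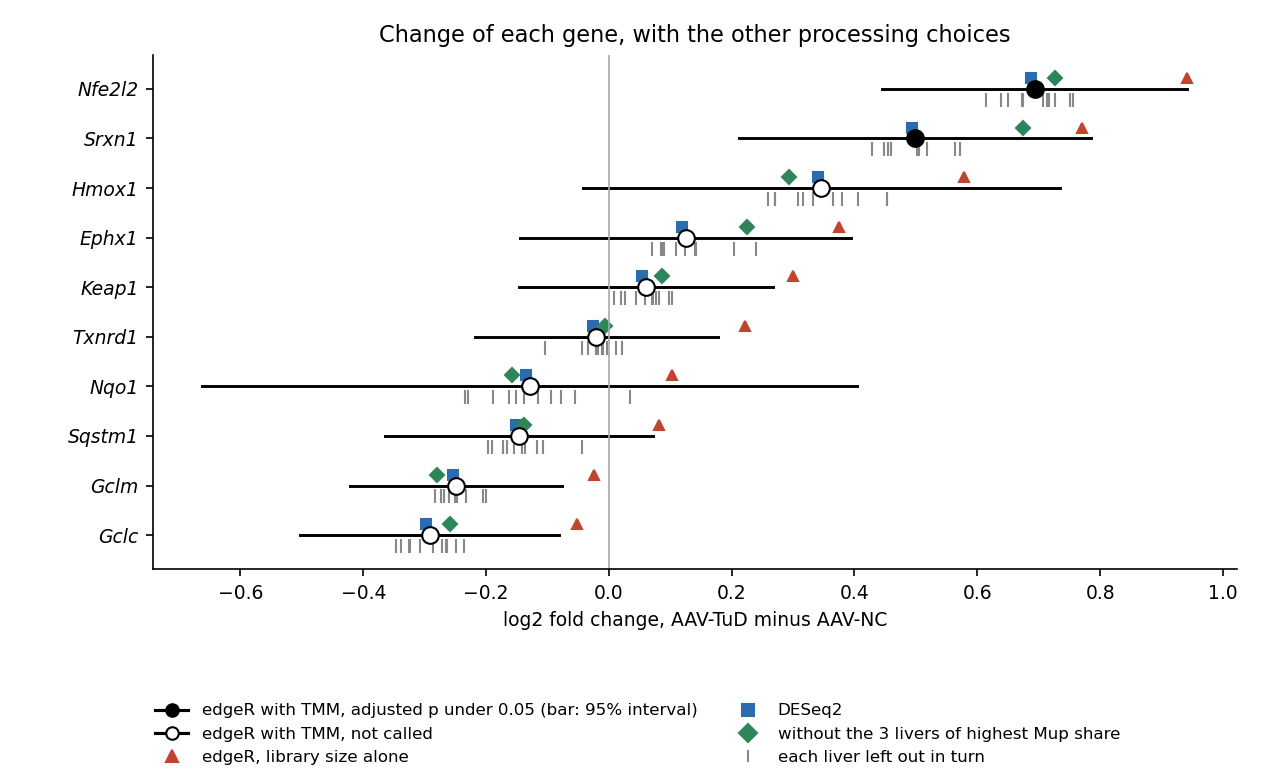
Log2 fold change of each gene (x axis, AAV-TuD minus AAV-NC) with its 95% interval from edgeR with TMM scaling (circle and bar, filled where the adjusted p is under 0.05), beside the values with library size alone, in DESeq2, without the 3 livers of highest *Mup* share and with each liver left out. *Nfe2l2* and *Srxn1* stay to the right of 0 under every setting shown, and library size alone moves all 10 genes to the right.

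*Hmox1*, the heme oxygenase that NRF2 induces and BACH1 represses, lies on chr8:75093621-75100589 (plus strand) and was measured with 26 to 78 reads per liver. It held 5.49, 3.27, 3.21, 3.76 and 5.35 CPM in the AAV-NC livers and from 4.28 through 5.32 to 6.73 CPM in the AAV-TuD livers, of which 3 were above all controls. The log2 fold change of 0.35 did not pass the test (SE 0.18, 95% interval -0.042 to 0.73, adjusted p = 0.247). *Nqo1*, the quinone reductase that is the usual readout of NRF2 activity, lies on chr8:107388225-107403206 (minus strand) and was close to the detection limit, with 8 to 21 reads per liver. Its levels were 2.15, 1.38, 1.55, 1.0 and 1.36 CPM in the AAV-NC livers and from 0.956 to 1.81 CPM in the AAV-TuD livers. At this depth the 95% interval of its log2 fold change ran from -0.66 to 0.40 around -0.13 (adjusted p = 0.801), so that a change of the size seen in *Nfe2l2* lay outside it and one of the size of *Hmox1* inside it.

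*Sqstm1*, the gene of the autophagy adaptor p62, lies on chr11:50199366-50210827 (minus strand). It held 127, 141, 118, 127 and 174 CPM in the AAV-NC livers and from 107 to 143 CPM with a median of 125 in the AAV-TuD livers, and AAV-NC liver 8 was the highest of all (log2 fold change -0.15, 95% interval -0.36 to 0.072, adjusted p = 0.400). Of the 1424 bases of its 3′ UTR, 580 are also exon of *Mrnip* on the other strand. The strand setting of the counting is not given in the sources used here, and without it reads of the overlapping genes cannot be told apart. *Ephx1*, the microsomal epoxide hydrolase, lies on chr1:180976210-181020904 (minus strand). It held 137, 123, 117, 131 and 179 CPM in the AAV-NC livers and from 108 to 170 CPM with a median of 155 in the AAV-TuD livers (log2 fold change 0.13, 95% interval -0.14 to 0.39, adjusted p = 0.585). The same liver, AAV-NC 8, held the highest level of *Sqstm1* and of *Ephx1*. Without it the log2 fold changes were -0.044 for *Sqstm1* and 0.24 for *Ephx1*.

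The 10 genes differed far more from each other than between the groups. In the AAV-NC livers the order of the mean levels was *Gclc* (211 CPM), *Gclm* (156), *Sqstm1* (137), *Ephx1* (137), *Txnrd1* (92.2), *Nfe2l2* (62.9), *Keap1* (26.2), *Srxn1* (16.0), *Hmox1* (4.22) and *Nqo1* (1.49), a span of 142-fold. The ranges of the control livers overlapped for the neighbours *Gclm* and *Sqstm1* and for *Sqstm1* and *Ephx1*, and for no other neighbours. In the means of the AAV-TuD livers *Ephx1* (150 CPM) stood second, above *Gclm* (132) and *Sqstm1* (124), and *Nfe2l2* (102) stood above *Txnrd1* (90.9). Of these, *Ephx1*, *Gclm* and *Sqstm1* overlapped in the AAV-NC livers. *Txnrd1* was above *Nfe2l2* in 6 of the 11 livers, the 5 AAV-NC livers and AAV-TuD liver 3. The 2 genes were level in AAV-TuD liver 10, with 1350 reads each, and *Txnrd1* was below *Nfe2l2* in AAV-TuD livers 4, 5, 9 and 11.

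**Figure D3:**
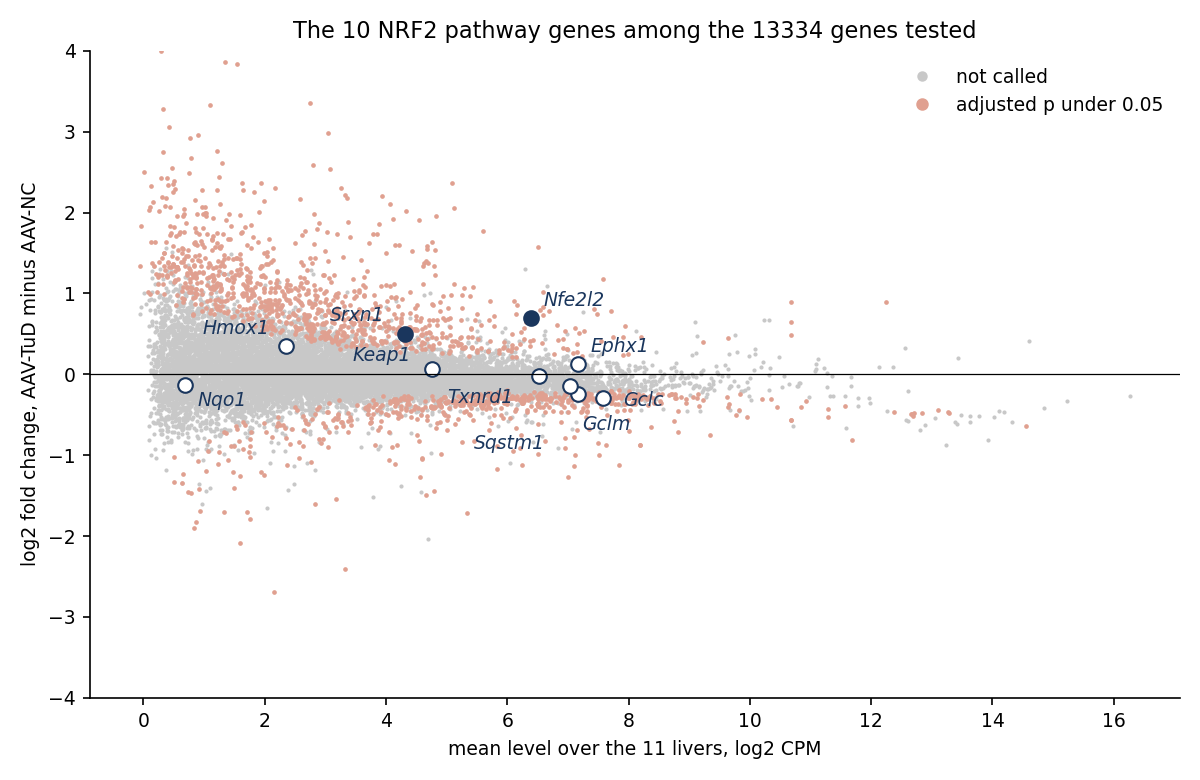
Log2 fold change (AAV-TuD minus AAV-NC) against the mean level over the 11 livers in log2 CPM for the 13334 genes tested, with genes at an adjusted p under 0.05 in light red and the 10 NRF2 pathway genes as circles (filled where called); 4 genes lie beyond the y axis limit of 4. *Nfe2l2* and *Srxn1* lie above the cloud of uncalled genes at their levels and the other 8 lie within it or at its lower edge.

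After the group mean had been taken from each liver's log2 CPM, the 10 genes moved together only loosely from liver to liver. Over the 11 livers, which share the 2 group means taken out and the scaling of each library, 35 of the 45 pairs had a Pearson correlation above 0, with a median of 0.28, 10 pairs were above 0.5 and 1 was below -0.5. The highest was between *Srxn1* and *Ephx1* (0.80), followed by *Keap1* and *Ephx1* (0.72), and the lowest between *Gclm* and *Txnrd1* (-0.66). *Nfe2l2* had a value of 0.61 with *Gclc*, 0.16 with *Srxn1* and -0.15 with *Gclm*. Of the 8364 other genes that averaged 50 reads or more, those most like the mean of the 10 genes were *Cxcl9* (0.94), *Lmnb1* (0.92), *Arap2* (0.91), *Otud7b* (0.91) and *Vrk3* (0.90), and those most like *Nqo1* were *Dgkd* (0.92), *Tmem123*, *Dnajc2*, *Smurf1* and *Eepd1* (all 0.89). These are the highest values among 8364 genes over 11 livers and are given as a description. *Nqo1* itself had only 8 to 21 reads per liver, fewer than the 50 asked of the other genes.

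Marker genes of other liver cells moved with the same comparison. Of the Kupffer cell and macrophage markers, 11 of 18 tested were higher with AAV-TuD and 0 lower (median log2 fold change 0.87), and their summed level was 223 to 310 CPM in AAV-NC and 260 to 635 CPM in AAV-TuD livers. Of the stellate cell and fibroblast markers, 10 of 12 were higher and 0 lower (median 0.87), with sums of 227 to 317 CPM and 397 to 538 CPM that did not overlap, and *Dcn* was the most abundant of them (150 ± 21.7 CPM, n = 5, and 259 ± 23.4 CPM, n = 6). Of 7 cholangiocyte markers 5 were higher (101 to 141 CPM in sum against 165 to 209 CPM) and of 3 neutrophil and monocyte markers 2 were (3.76 to 6.42 CPM against 6.80 to 12.7 CPM). Of 13 sinusoidal endothelial markers only *Maf* passed the test, with sums of 463 to 525 CPM and 489 to 541 CPM, and none of 6 red blood cell genes did (1916 to 2755 CPM against 2518 to 7007 CPM). The most abundant marker of the other lists was *Slc40a1* for macrophages (log2 fold change 0.037, adjusted p = 0.900), *Maf* for endothelium (0.28, 0.0481), *Cdh1* for cholangiocytes (0.39, 0.0205), *Plac8* for neutrophils and monocytes (0.60, 0.0476) and *Hba-a1* for red blood cells (0.67, 0.0692). None of the 11 lymphocyte markers had a row. Of 12 hepatocyte markers, 1 was higher and 2 lower. *Alb*, the most abundant of them, did not pass the test in edgeR (0.41, adjusted p = 0.0805), but DESeq2 called it (adjusted p = 0.000331). All 6 AAV-TuD livers were above all controls for *Alb* (21096 ± 2304 CPM, n = 5, and 28044 ± 2727 CPM, n = 6). The sum of the 12 markers, in which *Alb* weighs most, was 40587 to 46643 CPM in AAV-NC and 48982 to 55014 CPM in AAV-TuD livers. This sum does not stand for the markers one by one, since 8 of the 12 log2 fold changes were below 0 and 4 above 0. The called genes were *Apob* (-0.40) and *Hnf4a* (-0.38), both lower, and *Cyp3a11* (0.64), higher. The medians of the marker lists kept their sign with library size alone, except the hepatocyte median, which was -0.12 with TMM and 0.11 with library size alone (-0.12 relative to all genes), and the endothelial median, which was -0.023 and 0.21 (-0.024 relative to all genes).

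AAV-TuD livers 4 and 10, the highest for both *Nfe2l2* and *Srxn1*, also had the highest macrophage sums (509 and 635 CPM). AAV-TuD liver 3 had a macrophage sum of 260 CPM, inside the AAV-NC range, and there *Nfe2l2* was 93.9 CPM, above every control, while *Srxn1* was 16.6 CPM, inside the control range. Its stellate sum of 427 CPM was above every control. The macrophage sum does not stand for each of its markers. All AAV-TuD livers, liver 3 included, were above every control for *Ctss* (at least 33.6 CPM against at most 29.0 CPM). The same held for *Gpnmb*, at a very low level (at least 0.939 CPM against at most 0.292 CPM). For the other macrophage markers tested, the ranges of the groups overlapped. The part of these cells in the change of either gene was not tested.

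**Figure D4:**
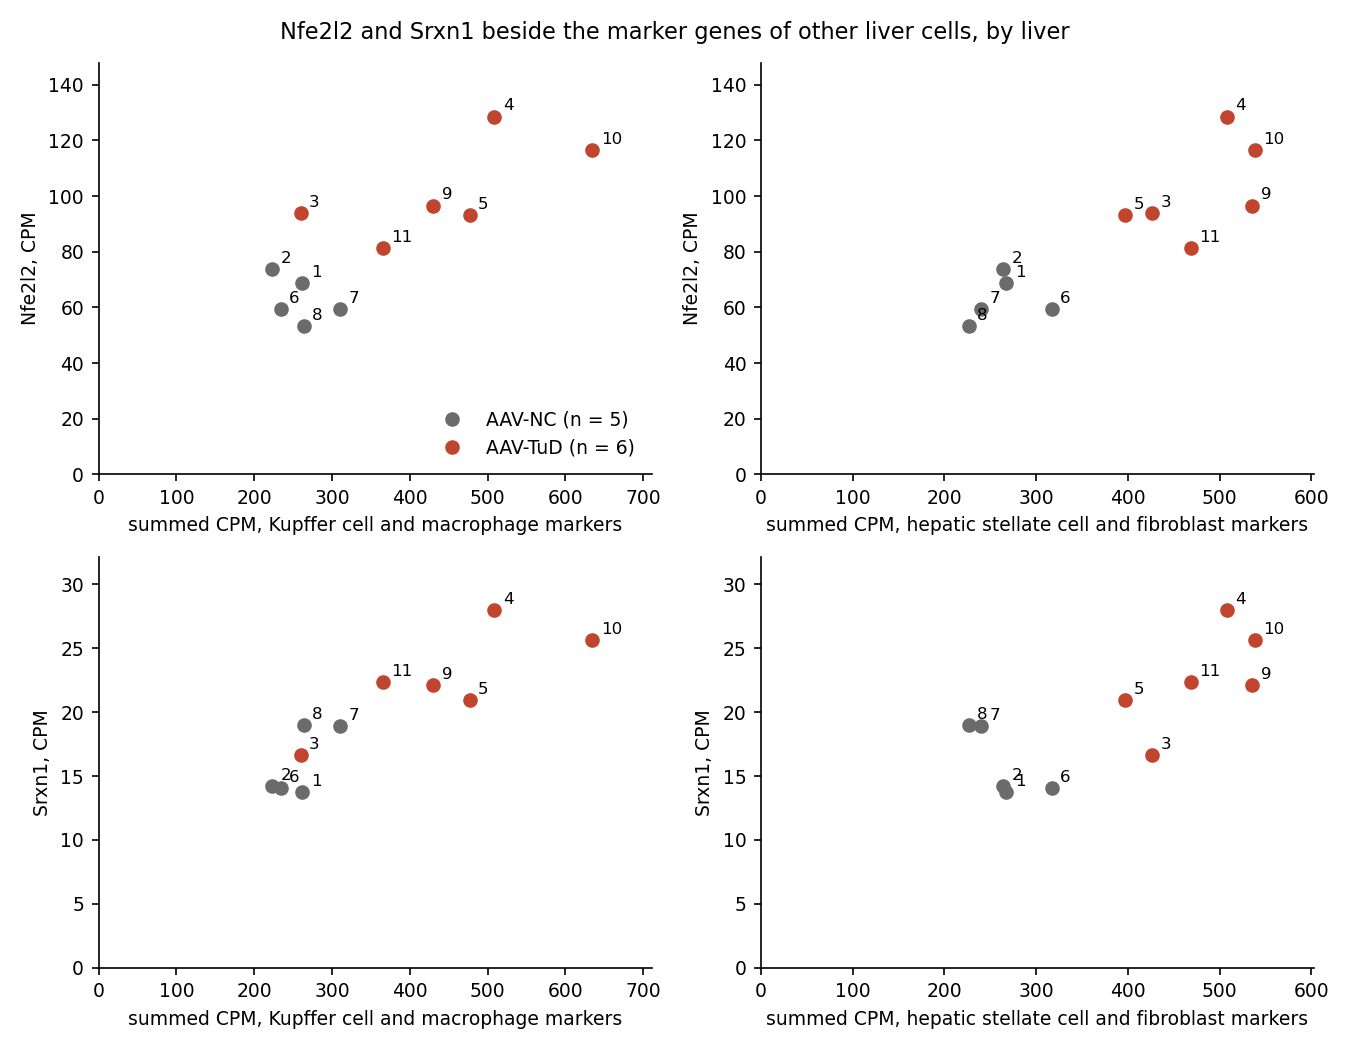
*Nfe2l2* (top) and *Srxn1* (bottom), in CPM, against the summed CPM of the Kupffer cell and macrophage markers (left) and of the hepatic stellate cell and fibroblast markers (right), with 1 point per liver and its replicate number beside it. AAV-TuD liver 3 lies within the AAV-NC range of the macrophage sum but above all AAV-NC livers for *Nfe2l2*, and the stellate sums of the groups do not overlap.

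The counts of the related lists stand beside 11.6% of all tested genes called, 7.24% higher and 4.33% lower. Of 17 genes for the partners, competitors and degraders of NRF2, 1 was higher with AAV-TuD and 0 lower, with a median log2 fold change of -0.0075. It was *Mafk*, one of the small MAF proteins that pair with NRF2, at 1.11 ± 0.18 CPM (SD, n = 5) and 1.87 ± 0.36 CPM (SD, n = 6) (log2 fold change 0.74, adjusted p = 0.0459). All 6 AAV-TuD livers were above all controls for *Mafk*, but the gene had only 8 to 29 reads per liver and DESeq2 did not call it (adjusted p = 0.0897), nor did 10 of the other alternatives.

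Few glutathione genes were called, in both directions. Of 15 tested for the supply and recycling of glutathione, 2 were higher and 1 lower (median 0.068), namely *Gpx3*, the secreted glutathione peroxidase (0.92, adjusted p = 0.0401), *Ggct*, which acts in the breakdown of glutathione (0.42, adjusted p = 0.0465), and *Cbs*, which starts the route from homocysteine to cysteine (-0.46, adjusted p = 0.0292). *Gpx3* had 10 to 76 reads per liver. Of the 20 alternatives, *Gpx3* was called under 10, *Ggct* under 9 and *Cbs* under 15. Of 21 glutathione transferases, 0 were higher and 2 lower, *Gsta3* (1003 ± 48.6 against 848 ± 25.7 CPM, adjusted p = 0.0373) and *Gstm4* (-0.44, adjusted p = 0.0247). The median of the family was -0.13 and 16 of the 21 were below 0, whereas with library size alone 16 were above 0 and the median was 0.12, or -0.12 relative to all genes. The calls of the family turned with the setting, to 2 higher and 0 lower with library size alone and to 1 higher and 0 lower without AAV-TuD liver 11. Over the 165 genes with a mean level of 9 or more on the log2 CPM scale, where *Gsta3* lies, the median log2 fold change was -0.19. That of *Gsta3* was -0.24. *Gsta3* was called under 10 and *Gstm4* under 15 of the 20 alternatives. Members of this family share sequence, and how reads that match several of them were counted is not given in the sources used here.

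Of 17 thioredoxin and peroxiredoxin genes, 1 was higher and 1 lower (median 0.0057). *Prdx6*, a peroxiredoxin that reduces lipid peroxides, fell from 387 ± 21.0 CPM (SD, n = 5) to 303 ± 13.4 CPM (SD, n = 6) with no overlap of the groups (log2 fold change -0.35, adjusted p = 0.00357), and *Txnip*, which binds and inhibits thioredoxin, rose by 0.48 (adjusted p = 0.0428). Of the 5 superoxide dismutase and catalase genes, *Sod3*, the extracellular enzyme, was higher (0.65, adjusted p = 0.0234) and *Sod1*, the cytosolic one, lower (1308 ± 59.0 against 1056 ± 63.4 CPM, adjusted p = 0.0177), and the median was -0.10. With library size alone, *Prdx6* was at -0.12 and *Sod1* at -0.078 without a call, which is -0.35 and -0.31 relative to all genes. With TMM, the median log2 fold change was -0.17 over genes at the level of *Prdx6* (8 to 9 on the log2 CPM scale). It was -0.19 over genes at the level of *Sod1* (9 or more). *Txnip* was called under 12 and *Sod3* under 18 of the 20 alternatives.

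Of 10 genes that supply NADPH, the reductant of both systems, *Taldo1* of the pentose phosphate route was higher (0.26, adjusted p = 0.0229) and *Me1*, malic enzyme, lower, and the median was -0.0083. *Me1* had the largest fall among the genes of these lists that passed the test, from 251 ± 87.6 CPM (SD, n = 5) to 126 ± 29.0 CPM (SD, n = 6) (log2 fold change -1.0, SE 0.20, adjusted p = 0.00622). The control livers varied widely, from 134 to 339 CPM, and 4 of the 6 AAV-TuD livers were below all of them. *Me1* was called under all 20 alternatives and *Taldo1* under 17.

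Of 19 tested detoxifying enzymes and conjugate exporters, 1 was higher and 2 lower (median -0.059). *Ptgr1*, a reductase of reactive alkenals, had the largest rise among the called genes of these lists. It was 0.597, 1.13, 1.99, 0.876 and 1.27 CPM in the AAV-NC livers and from 2.23 through 4.08 to 5.26 CPM in the AAV-TuD livers, with no overlap (log2 fold change 1.75, SE 0.29, adjusted p = 0.00208), and it was called under all 20 alternatives, on 5 to 65 reads per liver. *Ugt2b35* (-0.39, adjusted p = 0.00491) and *Akr7a5* (-0.27, adjusted p = 0.0499) were lower, and were called under 19 and 7 of the 20 alternatives.

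**Figure D5:**
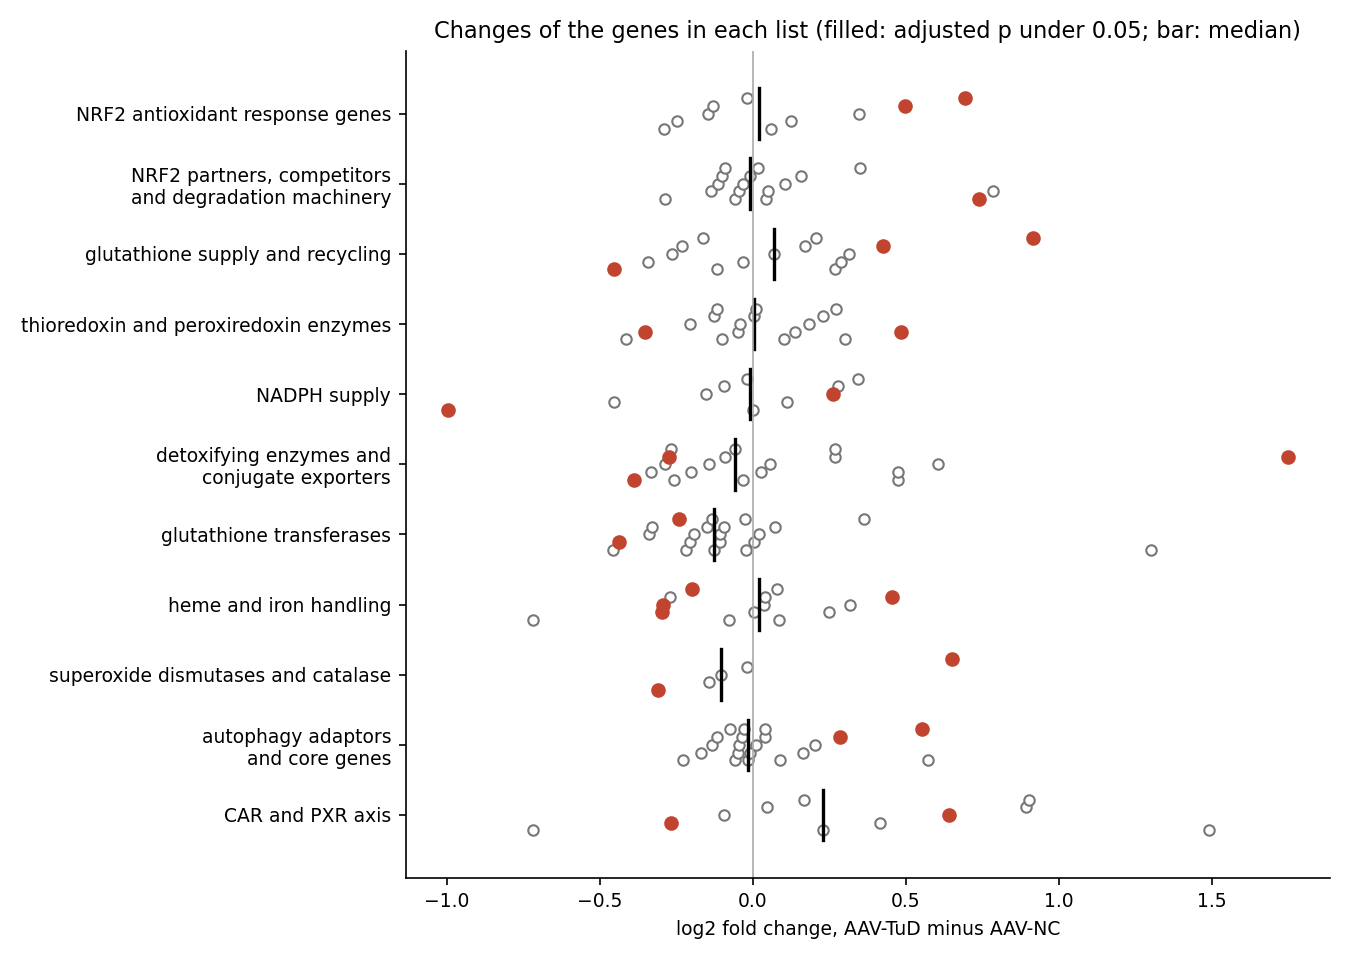
Log2 fold change (AAV-TuD minus AAV-NC) of every tested gene of the 10 NRF2 pathway genes and of 10 lists of related genes, 1 row per list, with called genes filled and the median as a bar. The medians lie between -0.13 (glutathione transferases) and 0.23 (CAR and PXR axis), and *Ptgr1* at 1.75 and *Me1* at -1.0 are the called genes farthest from 0.

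The lists around the remaining genes were as mixed. Of 14 heme and iron genes, *Cp*, the ferroxidase ceruloplasmin, was higher (660 ± 36 against 905 ± 43.0 CPM, adjusted p = 0.00149), and *Fth1*, *Fech* and *Blvrb*, for ferritin heavy chain, ferrochelatase and a biliverdin reductase, were lower by 0.20 to 0.30 on the log2 scale (adjusted p 0.0334 to 0.0433), with a median of 0.021. With library size alone *Fech* was at 0.032, which is -0.20 relative to all genes. With TMM, genes at the level of *Fth1* (9 or more on the log2 CPM scale) had a median of -0.19. *Fth1* was called under 12, *Fech* under 10 and *Blvrb* under 9 of the 20 alternatives. Of 21 autophagy genes, *Wipi1* (0.55, adjusted p = 0.0102) and *Atg12* (0.28, adjusted p = 0.0418) were higher and 0 lower, with a median of -0.014. Of 11 genes of the xenobiotic receptors CAR and PXR, which also control *Ephx1*, *Cyp3a11* was higher (1259 ± 134 against 1965 ± 333 CPM, adjusted p = 0.00409, also counted among the hepatocyte markers) and *Cyp3a13* lower (-0.27, adjusted p = 0.0302), with a median of 0.23. Of these genes *Cp*, *Wipi1* and *Cyp3a11* were called under all 20 alternatives, *Cyp3a13* under 12 and *Atg12* under 9.

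The decoy binds *miR-379* and *miR-541*, so the longest 3′ UTR that GENCODE M21 gives each of the 10 genes was searched for matches to bases 2 to 8 of the miRNAs (the seed, in capitals). The study reports that the decoy also lowered the host transcripts *lncMGC* and *Mirg* and other miRNAs of the same cluster in liver. The seeds of those other miRNAs were not searched. The mature sequences of *miR-379* and *miR-541* are from RefSeq (GRCm38.p6).
miR-379-5p: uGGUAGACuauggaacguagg
miR-541-5p: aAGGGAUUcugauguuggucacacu
The 3′ UTRs of *Nfe2l2* (448 bases) and *Srxn1* (2184 bases) held no match to either seed. *Gclm* held 1 match to *miR-379-5p*, at base 498 of its 3′ UTR, and *Keap1* and *Sqstm1* held 1 match each to *miR-541-5p*, at bases 571 and 1332. The matched bases are in capitals.
Gclm, chr3:122266884-122266905, plus strand: taactatagcaGTCTACCagta
Keap1, chr9:21230121-21230142, minus strand: agggcggtcggAATCCCTcagg
Sqstm1, chr11:50199448-50199469, minus strand: taaccaccaccAATCCCTttaa
Of the 10935 tested genes with an annotated 3′ UTR, 5.72% held a match to *miR-379-5p* and 9.51% to *miR-541-5p*. None of the 3 genes with a match was called in edgeR, and their log2 fold changes were -0.25, 0.060 and -0.15.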

How the data were processed

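Liver RNA of 11 mice (5 AAV-NC, 6 AAV-TuD) was sequenced by the authors as QuantSeq 3′ mRNA libraries. The authors trimmed the reads, aligned them with STAR (version 2.5.3a in the submitters' processing notes) to GRCm38, and used Rsubread to assign them to genes. The deposited table holds raw counts of reads. Its annotation, its strand setting and its treatment of reads that match several genes are not given in the sources used here. Every deposited gene had at least 10 reads in at least 5 livers.

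A gene was tested where at least 5 livers held over 10 of its reads. Tests used edgeR (version 4.0.16, R 4.3.3) and its quasi-likelihood method, with TMM scaling and Benjamini-Hochberg adjustment over 13334 genes, and a call is an adjusted p below 0.05. Levels in CPM were computed on TMM-scaled totals, and a prior count of 2 was added for log2 CPM. Totals of 8148531 to 12043959 reads give a gene at 1 CPM about 10 reads. Within-liver ratios were tested by exact permutation over all splits of the livers. Motifs and seeds were searched in RefSeq promoters and miRNAs on GRCm38.p6 and in 3′ UTRs of GENCODE M21.

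The procedure was tested on simulated counts. The alternatives were DESeq2 1.42.0, its size factors, upper-quartile factors, library size alone, *Mup* genes removed, all deposited genes without a filter, filterByExpr, limma-voom (3.58.1) with quality weights, each liver left out, the 3 livers of highest *Mup* share left out, and a prior count of 0.5 for the ratios. The 10 genes, the related lists and the tests were chosen with earlier results of these data known. From each related list, up to 4 called genes with the smallest p were named, from each cell type list the gene of highest CPM (*Alb* for hepatocytes), and as most alike the 5 genes with the highest correlation.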

Additional observations from a re-analysis of the deposited data

How the results depend on the processing

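*Nfe2l2* kept its direction and its call under all 20 alternatives, *Srxn1* its direction under 20 and its call under 15, and *Keap1*, *Hmox1* and *Ephx1* kept their direction without a call under all 20. DESeq2 called 4 of the 10 genes, with *Gclc* at -0.30 and *Gclm* at -0.25, and 0 of the NRF2 partners. With library size alone, *Nqo1* was at 0.10, *Txnrd1* at 0.22 and *Sqstm1* at 0.082, which relative to the median of all genes are -0.13, -0.0089 and -0.15, the signs of the TMM values, and the called genes were 1 of the thioredoxin, 1 of the detoxifying, 1 of the heme and iron and 1 of the superoxide dismutase genes and 4 of the CAR and PXR genes, all of them higher, and 2 glutathione transferases, also higher. With limma-voom 1 of the autophagy genes was called. Without the 3 livers of highest *Mup* share, 0 of the NRF2 partners and 1 of the heme and iron genes were called.

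With each liver left out in turn, 1 to 3 of the 10 genes were called. The log2 fold change ranged from -0.24 to 0.034 for *Nqo1* (0.034 without AAV-NC liver 1), from -0.35 to -0.24 for *Gclc*, from -0.28 to -0.20 for *Gclm*, from -0.10 to 0.022 for *Txnrd1* (above 0 without AAV-TuD liver 9, 0.022, or 11, 0.012), from 0.43 to 0.57 for *Srxn1*, from 0.0079 (without AAV-TuD liver 10) to 0.10 for *Keap1*, from 0.26 to 0.45 for *Hmox1*, from -0.20 to -0.044 for *Sqstm1* and from 0.070 to 0.24 for *Ephx1*. *Gclc* was called without AAV-TuD liver 4 (adjusted p = 0.0427), and *Gclm* without AAV-TuD liver 3 or 9 (0.0499 and 0.0491). The log2 ratio of *Gclm* to *Gclc* differed by -0.035 (without AAV-TuD liver 9) to 0.13 and that of *Srxn1* to *Txnrd1* by 0.46 to 0.62. The calls ranged from 0 to 1 for the NRF2 partners, 0 to 3 for glutathione supply, 1 to 3 for thioredoxin genes, NADPH supply and the CAR and PXR axis, 0 to 3 for glutathione transferases, 1 to 4 for heme and iron, and 1 to 2 for superoxide dismutases and for autophagy genes. The cause of these changes was not tested. A prior count of 0.5 changed no call of a ratio.

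No paired analysis was possible because the replicate numbers of AAV-NC (1, 2, 6, 7 and 8) and AAV-TuD (3, 4, 5, 9, 10 and 11) share no number. Depth limits *Nqo1* (8 to 21 reads per liver) and *Hmox1* (26 to 78) and, in the related lists, *Mafk* (8 to 29), *Ptgr1* (5 to 65) and *Gpx3* (10 to 76).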
